A study of Homo sapiens with 6 samples.

Results

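DEAD and DEAH box proteins are the largest families of RNA helicases. They bind RNA through a pair of RecA-like domains and use ATP to open short duplexes, to strip proteins from RNA or to clamp onto it, and the names DEAD and DEAH are the amino acids of the motif that hydrolyses ATP. Members act at nearly every step in the life of a transcript, from splicing and nuclear export through ribosome assembly to translation and decay, and most are expressed in every dividing cell. The members described here were chosen by name. They are the protein-coding genes whose symbol begins with DDX or DHX and a number, without DDX58 and DHX58, which sense viral RNA. There were 53 such genes, 38 DDX and 15 DHX, among the 58302 genes of the table, 19817 of them protein-coding.

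RNA was sequenced from MDA-MB-231-DR cells. This line was made resistant to doxorubicin from MDA-MB-231, a human breast cancer line of the triple-negative type, and was kept in medium with a low dose of the drug. There were 3 control libraries and 3 libraries of cells treated with cyperotundone (CYT), a compound of natural origin, and both groups carried the resistant background. Neither the CYT dose nor the time of treatment is named for these libraries, and the sequenced libraries came from 1 resistant line. The comparison asked which transcripts differ after CYT. The study's methods speak of independent experiments for its data in general, without naming the sequencing, and the labels do not say whether libraries of a group came from separate cultures. The p-values therefore measure the spread between these libraries, which may be technical.

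Summed gene counts ran from 14050849 to 17770102 in the control and from 13056270 to 14106017 in the CYT libraries. Of markers of the cell line, VIM, CD44, AXL and EGFR summed to between 3470 and 3794 CPM (counts relative to library size, scaled between libraries by edgeR's TMM method) in control and between 1590 and 1632 in CYT, and 3 of the 4 were called lower. The 4 luminal markers ESR1, PGR, FOXA1 and GATA3 summed to between 5.80 and 12.8 CPM over all libraries. The 3 fibroblast markers summed to between 11.7 and 19.6 CPM in control and between 2.78 and 3.95 in CYT, nearly all of it COL1A1, with DCN at 0. COL1A1 was called lower (log2 fold change -2.16, edgeR adjusted p = 0.00264). The 3 leukocyte markers summed to between 0.213 and 1.37 CPM in control and between 4.05 and 4.34 in CYT, with CD3E at 0 in all libraries. Most of it was CD14, which had a mean of 0.733 CPM in control and 3.9 in CYT. CD14 was called higher (log2 fold change 2.43, edgeR adjusted p = 0.0157). The part of these marker shifts in the helicase results was not tested. In bulk RNA, fewer cells of a type and less RNA per cell cannot be told apart.

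The largest difference in the family was in DDX17. The promoters of DDX17, DDX39A and DHX15 are shown. DDX17 and DDX39A are the members that fell furthest in nuclear processing and export. In splicing DHX16 fell further than DHX15, but its window shares 31 bases with an annotated DHX16 exon and is not shown. That limit was not applied to DDX17, whose window also shares bases with an exon. Each run is the 250 bases before a RefSeq transcription start in GRCh38.p14, read 5′ to 3′ on the minus strand that carries these genes. The windows are chr22:38506312-38506561 for DDX17, chr19:14419384-14419633 for DDX39A and chr4:24584555-24584804 for DHX15. The DDX17 locus in the table begins 1099 bases upstream of its window, so that all 250 bases lie inside the annotated gene, and 26 of them in a DDX17 exon of GENCODE release 29. The windows shown for DDX39A and DHX15 lie outside their loci and share no base with an annotated exon. Another RefSeq start of DDX39A has the window chr19:14419342-14419591, with 42 bases in the locus and in a DDX39A exon. Its letters are not shown. Capitals mark matches, on either strand, to the GC box GGGCGG or the CCAAT box CCAAT.
DDX17: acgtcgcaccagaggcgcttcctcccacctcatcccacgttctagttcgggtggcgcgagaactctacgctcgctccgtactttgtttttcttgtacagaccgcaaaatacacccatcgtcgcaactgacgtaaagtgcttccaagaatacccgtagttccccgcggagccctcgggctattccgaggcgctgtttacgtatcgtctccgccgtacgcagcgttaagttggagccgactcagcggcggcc
DDX39A: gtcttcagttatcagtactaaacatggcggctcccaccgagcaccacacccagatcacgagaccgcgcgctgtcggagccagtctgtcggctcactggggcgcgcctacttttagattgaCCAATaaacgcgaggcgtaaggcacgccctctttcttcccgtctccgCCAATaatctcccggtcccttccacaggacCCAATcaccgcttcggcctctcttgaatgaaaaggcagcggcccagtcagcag
DHX15: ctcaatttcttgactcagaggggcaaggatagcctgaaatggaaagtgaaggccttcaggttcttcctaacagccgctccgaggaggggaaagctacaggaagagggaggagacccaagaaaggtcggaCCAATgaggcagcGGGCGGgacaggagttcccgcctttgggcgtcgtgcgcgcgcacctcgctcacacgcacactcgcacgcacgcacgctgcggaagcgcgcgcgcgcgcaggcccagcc
The DDX17 window held no match to either box, nor to the E-box CACGTG or the TATA box TATAAA. The DDX39A window shown held 3 CCAAT boxes, as did its other window, and that of DHX15 held 1 GC box and 1 CCAAT box. DHX16, another member that fell, also had no match to the 4 motifs in its window. The windows of the 2 members that rose, DHX38 and DDX24, lay over annotated exons and their letters are not shown. Each held 2 GC boxes, with 2 CCAAT boxes in DHX38 and 1 in DDX24.

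Of the 53 members, 49 were in the RefSeq promoter table. A GC box was found in 30 of the 49, against 46.2% of all 27305 genes in the table, and a CCAAT box in 25 of the 49, against 37.0%. The E-box occurred in 9 of the 49, against 7.73% of all genes, and the TATA box in 4 of the 49, against 13%. Among the 11 members that fell, 6 held a GC box and 6 a CCAAT box. The E-box was found in DDX31 and DHX35, and the TATA box in DDX31 and DDX39B. Matches on either strand were counted, also where they overlapped. A match is a description of the letters alone.

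Of the 53 members, 48 had enough counts to be tested. The others were DDX4, DDX25, DDX43 and DDX53, helicases of the germ line or of cancer-testis type, and DDX3Y, none of which had more than 5 counts in any library. A gene was called when its p-value from edgeR's quasi-likelihood test, adjusted by the Benjamini-Hochberg method over all 15572 genes tested, was under 0.05. By this rule 11 members fell, which is 22.9% of the 48, where 12.9% of all genes tested were called lower. Only DHX38 and DDX24 rose, which is 4.17% of the 48, where 15.7% of all genes were called higher. A log2 fold change below 0 was found in 34 of the 48 members, and the median was -0.39 against 0.0064 over all genes tested. The median was -0.63 over the 33 tested DDX genes and -0.17 over the 15 DHX genes. Read by library instead, 15 members had every CYT library below every control library in CPM (22.7% of all genes tested) and 3 had every CYT library above (23.4%). An unadjusted p under 0.05 was found in 18 members, which is 37.5% of the 48, and in 40.9% of all genes tested.

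With the replicate number as a block, 19 members were called lower, which is 39.6% of the 48 where 19.8% of all genes were called lower, and 2 were called higher, where 20% of all genes were. The additions were DDX1, DDX11, DDX42, DDX46, DDX50, DDX51, DDX54 and DDX55. The block pairs libraries by number, and by their correlation across genes only replicate 2 matched by number. Calls over all genes moved with the same libraries. The number of members called lower was 5 of 48 without control replicate 1 (7.41% of all genes), 9 without control replicate 2 (10.2%) and 3 without control replicate 3 (7.36%). It was 5 without CYT replicate 1 (8.48%), 18 without CYT replicate 2 (17%) and 5 without CYT replicate 3 (7.63%). Without control replicate 3 the members' share, 6.25%, was below that of all genes, and in the other 5 fits it was between 10.4% and 37.5%, above it. The number called higher was 1 without control replicate 1 (10.9% of all genes), 3 without CYT replicate 2 (18.6%) and 0 without control replicate 2 (13.1%), control replicate 3 (10.3%), CYT replicate 1 (12.3%) or CYT replicate 3 (12.2%). DDX17, DDX39A and DDX39B were called lower in all 6 of these fits, and neither DHX38 nor DDX24 was called higher in all 6.

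**Figure D1:**
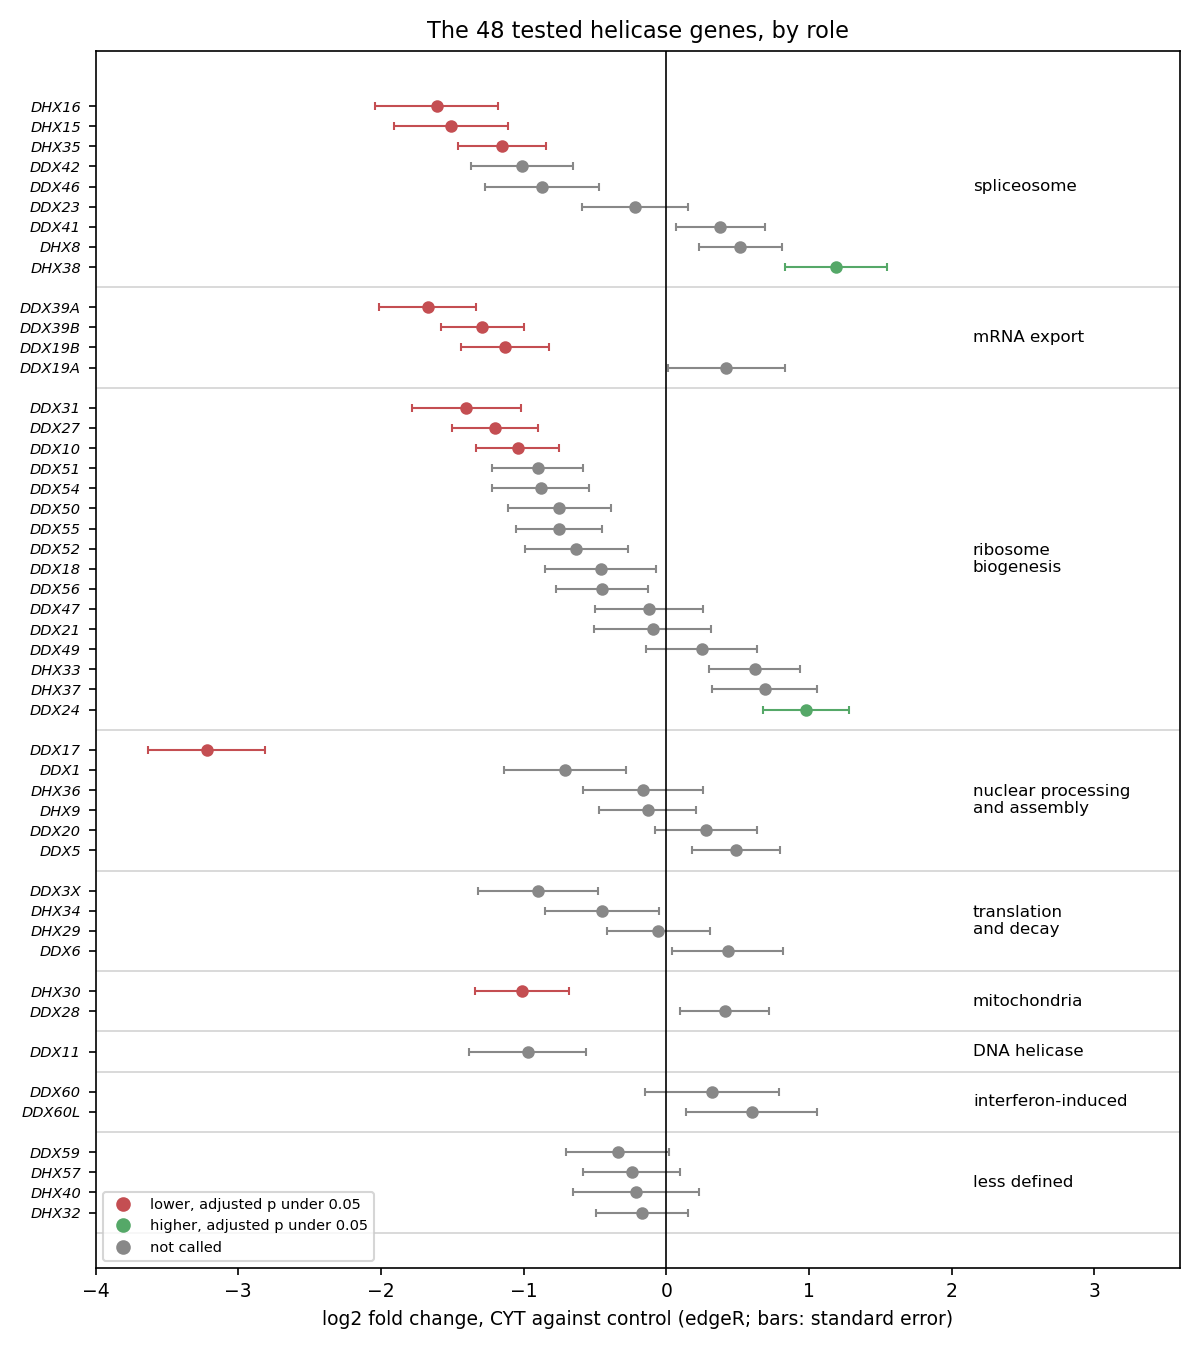
Log2 fold change of CYT against control for the 48 tested members, grouped by role, with the standard error from edgeR as bars. Red points are the 11 members called lower, green points the 2 called higher and grey points the 35 without a call, and DDX17 at -3.22 lies furthest from 0.

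The helicases of the spliceosome drive its rearrangements one after another, and of the 9 tested, 3 fell and 1 rose, with a median log2 fold change of -0.87. These are 33.3% and 11.1% of the 9, where 12.9% and 15.7% of all genes tested were called lower and higher. Those called lower were 5 of 9 with the replicate block (19.8% of all genes), without CYT replicate 2 (17%) or with a correction for GC content (26.1%). None was called lower without control replicate 3 (7.36%). DHX16, the counterpart of yeast Prp2 that readies the assembled spliceosome for the first cut, had 138, 80.0 and 100 CPM in the control libraries and 47.1, 16.3 and 40.7 in the CYT libraries. All CYT libraries lay below all control libraries, and CYT replicate 2 was the lowest. The means were 106 ± 29.2 and 34.7 ± 16.3 CPM (SD, n = 3), a log2 fold change of -1.61 (SE 0.43, edgeR adjusted p = 0.0196).

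DHX15, the counterpart of Prp43 that takes the used spliceosome apart, had 100, 160 and 131 CPM in control and 34.8, 73.4 and 28.6 in CYT. The groups did not overlap, although replicate 2 was the highest library of each. Its log2 fold change was -1.51 (SE 0.40, edgeR adjusted p = 0.0209), and -2.05 (adjusted p = 0.00164) without CYT replicate 2. DHX35, a component of the active spliceosome, had 21.6, 23.9 and 21.9 CPM in control and 8.18, 9.32 and 12.9 in CYT. The control libraries were close together and all CYT libraries were well below them, with a log2 fold change of -1.15 (SE 0.31, edgeR adjusted p = 0.0228).

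DHX38, the counterpart of Prp16 that acts between the cuts of splicing, moved the other way. It had 150, 66.1 and 106 CPM in control and 226, 203 and 303 in CYT, so that every CYT library was above every control library. The mean went from 107 ± 41.8 to 244 ± 52.2 CPM (SD, n = 3), a 2.28-fold rise (log2 fold change 1.19, SE 0.36, edgeR adjusted p = 0.0328). On the opposite strand, TXNL4B overlaps DHX38 by 870 bases and also rose (log2 fold change 1.63, adjusted p = 0.00276). Whether counting used strand is not given in the sources used here, so reads of the shared stretch cannot be assigned.

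DHX8, the counterpart of Prp22 that releases the spliced mRNA, had a log2 fold change of 0.52 (SE 0.29, edgeR adjusted p = 0.207). Also without a call were DDX42 and DDX46, which act on the U2 particle, DDX23, which acts when U1 leaves, and DDX41. The 5 uncalled members lay between -1.01 and 0.52. DDX42 was at -1.01 (edgeR adjusted p = 0.0597). It was called lower by DESeq2 (adjusted p = 0.0345), with no filter (0.0493), with the block (0.0269) and with the GC content correction (0.00645). Its call was also made without control replicate 2 (0.0382) or CYT replicate 2 (0.0451). Upper-quartile scaling (0.0996), a mean of at least 5 CPM, protein-coding genes alone, limma and the other left-out libraries gave no call. DHX16, DHX15, DHX35 and DHX38 lost their calls when single libraries were left out. The adjusted p was up to 0.0713 for DHX16 (without control replicate 1, control replicate 3 or CYT replicate 3). For DHX15 it was up to 0.0764 (without control replicate 2 or 3, or CYT replicate 1 or 3), and for DHX35 up to 0.0890 (without control replicate 1, 2 or 3, or CYT replicate 1). For DHX38 it was up to 0.113 (without control replicate 2 or 3, or CYT replicate 1 or 3).

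The export helicases load mRNA with its export factors and remodel it at the nuclear pore, and 3 of the 4 tested fell, where 12.9% of all genes were called lower. DDX39A and DDX39B are close paralogs that belong to the export machinery built on the THO complex. DDX39B had 460, 295 and 373 CPM in control and 165, 138 and 159 in CYT. Even the lowest control library was well above the highest CYT library. The means were 376 ± 82.5 and 154 ± 14.2 CPM (SD, n = 3), with a log2 fold change of -1.29 (SE 0.29, edgeR adjusted p = 0.00929). DDX39A had 277, 142 and 214 CPM in control and 76.8, 49.9 and 72.9 in CYT. Replicate 2 was the lowest library of both groups, and the groups did not overlap. The log2 fold change was -1.67 (SE 0.34, edgeR adjusted p = 0.00655). Leaving out single libraries gave adjusted p-values up to 0.0302 for DDX39A and 0.0398 for DDX39B.

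DDX19A and DDX19B are neighbouring paralogs on chromosome 16 whose product releases export factors from mRNA at the pore. DDX19B had 61.6, 36.7 and 57.8 CPM in control and 24.5, 20.7 and 26.2 in CYT, without overlap, and a log2 fold change of -1.13 (SE 0.31, edgeR adjusted p = 0.0245). DDX19A had 12.4, 26.6 and 40.5 CPM in control and 37.2, 37.4 and 31.5 in CYT, where the groups overlapped and the adjusted p was 0.480. A read-through gene of the same locus, AC012184.2, which is no member and is named because it overlaps both, had 708 counts in control replicate 1 and between 46 and 85 counts in the other libraries. Its counts were 65 and 55 in the other control libraries. Summed over the 3 genes, the locus had 95.7 ± 26.2 CPM in control and 64.2 ± 3.28 in CYT (SD, n = 3, exact two-sided permutation p = 0.2, where 0.1 is the smallest that 3 against 3 allow). How reads were shared among these genes is not given in the sources used here, so the split between them is uncertain. DDX19B lost its call without control replicate 1 or 3, or CYT replicate 1 or 3 (adjusted p up to 0.0892).

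**Figure D2:**
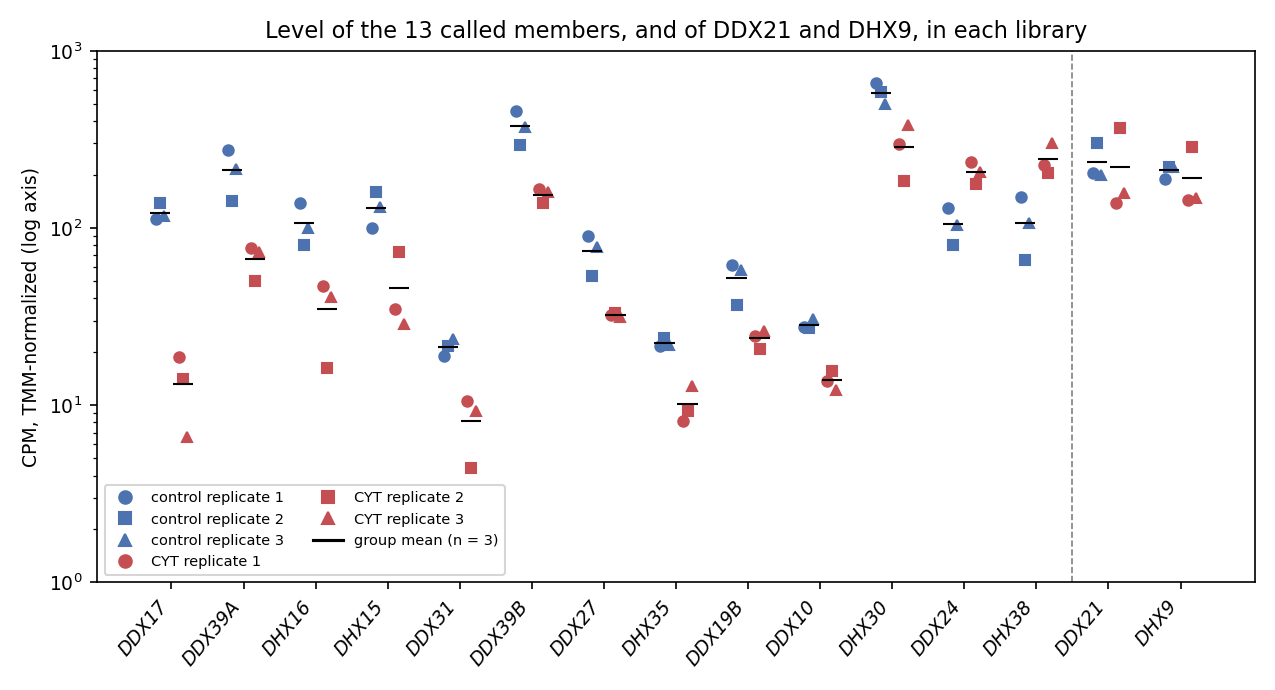
CPM of the 13 called members and of DDX21 and DHX9 in each of the 6 libraries, on a log axis, with blue control and red CYT symbols whose shape gives the replicate number and a black line at each group mean (n = 3). DDX17 falls from between 112 and 138 CPM in control to between 6.6 and 18.6 in CYT, while the groups of DDX21 and DHX9 overlap.

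Helicases of ribosome biogenesis fold and release snoRNAs and rRNA precursors in the nucleolus. Of the 16 tested, 3 fell and 1 rose, and the median log2 fold change was -0.55. These are 18.8% and 6.25% of the 16, where 12.9% and 15.7% of all genes were called lower and higher. The number called lower depended on the fit. It was 7 of 16 (43.8%) with the replicate block (19.8% of all genes) or without CYT replicate 2 (17%), and 10 of 16 (62.5%) with the GC content correction (26.1%). It was 0 without control replicate 3 (7.36%) or CYT replicate 3 (7.63%). Without this role, the other 32 tested members held 8 that fell (25%) and 1 that rose (3.12%), with a median of -0.23. DDX27, which acts in large-subunit assembly, had 90.1, 53.8 and 78.5 CPM in control and 32.3, 33.2 and 31.4 in CYT. The CYT libraries were almost level and all below the control libraries. Its log2 fold change was -1.20 (SE 0.30, edgeR adjusted p = 0.0163). On the other strand, ZNFX1 overlaps DDX27 by 6132 bases, so reads of the shared stretch cannot be assigned. ZNFX1 had 2318, 2182 and 1471 counts in control and 1607, 1310 and 1412 in CYT.

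DDX31, another helicase of the large subunit, had 18.9, 21.6 and 23.7 CPM in control and 10.6, 4.41 and 9.30 in CYT. The groups did not overlap and CYT replicate 2 was the lowest library. The log2 fold change was -1.40 (SE 0.38, edgeR adjusted p = 0.0232). DDX10, the counterpart of yeast Dbp4 in early rRNA processing, had 27.5, 27.3 and 30.5 CPM in control and 13.7, 15.5 and 12.2 in CYT. Both groups were tight and apart, with a log2 fold change of -1.04 (SE 0.29, edgeR adjusted p = 0.0239).

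DDX24, the counterpart of Mak5 in large-subunit assembly, rose. It had 130, 80.2 and 104 CPM in control and 236, 178 and 208 in CYT, so that replicate 2 was the lowest of each group and the groups did not overlap. The mean went from 105 ± 25.1 to 207 ± 28.8 CPM (SD, n = 3), a log2 fold change of 0.98 (SE 0.30, edgeR adjusted p = 0.0340). Its call was kept only without CYT replicate 2 among the 6 fits that leave out a library, and the adjusted p was up to 0.123 in the others. Without a filter on low counts it was 0.0675. The calls of DDX10, DDX27 and DDX31 were also lost without single libraries. The adjusted p was up to 0.0885 for DDX10 and up to 0.0668 for DDX27, each without control replicate 1 or 3, or CYT replicate 1 or 3. It was up to 0.0748 for DDX31, without control replicate 2 or 3, or CYT replicate 3.

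DDX21, which couples rRNA transcription to its processing, was the member with the highest level per length (FPKM) in CYT. Its values were 204, 303 and 198 CPM in control and 138, 366 and 157 in CYT. Replicate 2 was the highest library of each group, and the groups overlapped. The log2 fold change was -0.094 (SE 0.41, edgeR adjusted p = 0.886), and its sign turned under upper-quartile scaling (0.055). Without CYT replicate 2 the log2 fold change was -0.68 (adjusted p = 0.0912). Its paralog DDX50 had 51.3 ± 11 CPM in control and 30.5 ± 12.1 in CYT (SD, n = 3).

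The remaining members of this role had no call and lay between -0.90 and 0.69 on the log2 scale. DDX56 and DDX54, both of the large subunit, had log2 fold changes of -0.45 (SE 0.32, edgeR adjusted p = 0.326) and -0.88 (SE 0.34, edgeR adjusted p = 0.0798). With the GC content correction both were called lower, at -0.53 (adjusted p = 0.0346) and -0.74 (0.0151). The same held with that correction and the block (adjusted p = 0.0409 and 0.0272). Without CYT replicate 2 neither was called, at -0.24 and -0.70. DDX47, of the small subunit, had -0.12 (SE 0.38, edgeR adjusted p = 0.835), with a sign that turned under upper-quartile scaling (0.023). APOLD1 shares 16660 bases and the strand with DDX47, so reads in that stretch are uncertain for DDX47. APOLD1 had 111, 146 and 810 counts in control and 437, 538 and 187 in CYT. DHX37, which frees the U3 snoRNA from the small-subunit precursor, had 0.69 (SE 0.37, edgeR adjusted p = 0.196). DHX37 was called higher without CYT replicate 2 (0.96, adjusted p = 0.0267), with the GC content correction (0.79, adjusted p = 0.008) and with that correction and the block (0.79, adjusted p = 0.0171). The others were DDX18, DDX49, DDX51, DDX52, DDX55 and DHX33. C1QBP shares 7919 bases and the strand with DHX33 and fell (log2 fold change -0.86, adjusted p = 0.0487), so reads in that stretch are uncertain for DHX33.

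Among 6 helicases of transcription, RNA processing and assembly in the nucleus, 1 fell (16.7%, where 12.9% of all genes were called lower). With DDX1 added it was 2 of 6 (33.3%) with the replicate block (19.8% of all genes), without CYT replicate 2 (17%) or with the GC content correction (26.1%). DDX17, known as p72, is a coregulator of transcription and a factor in splicing and microRNA processing. It had 1800, 2601 and 1629 counts in control and 264, 198 and 83 in CYT. In CPM these were 112, 138 and 117 against 18.6, 14.1 and 6.6, so that the highest CYT library was far below the lowest control library. The means were 122 ± 14.2 and 13.1 ± 6.07 CPM (SD, n = 3), a 9.33-fold fall (log2 fold change -3.22, SE 0.41, edgeR adjusted p = 0.00102). The log2 fold change lay between -3.57 and -2.88 when each library was left out. KDELR3, which runs on the other strand, overlaps DDX17 by 8 bases and fell too (log2 fold change -1.28, adjusted p = 0.0107).

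DDX5, or p68, is the closest paralog of DDX17 and shares much of its work. Its values were 305, 347 and 351 CPM in control and 643, 425 and 336 in CYT, with CYT replicate 1 the highest and CYT replicate 3 inside the control range. The log2 fold change was 0.49 (SE 0.31, edgeR adjusted p = 0.266). DHX9, RNA helicase A, which binds structured RNA and acts as a transcription cofactor, had 189, 222 and 222 CPM in control and 143, 287 and 147 in CYT. CYT replicate 2 was above all control libraries and the other CYT libraries were below them. Its log2 fold change was -0.13 (SE 0.34, edgeR adjusted p = 0.799), 0.016 under upper-quartile scaling and -0.55 (adjusted p = 0.106) without CYT replicate 2. DDX1, of the tRNA ligase complex, also had its highest CYT value in replicate 2, at 38.2, 118 and 45.9 CPM, against 90.0, 122 and 119 in control. The log2 fold change was -0.71 (SE 0.43, edgeR adjusted p = 0.247), and it was called lower without CYT replicate 2 (-1.40, adjusted p = 0.00481). DDX20, of the SMN complex, and DHX36, which unfolds G-quadruplexes, had no call and lay at 0.28 and -0.16.

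In cytoplasmic translation and mRNA decay, none of the 4 tested members was called, where 12.9% of all genes were called lower and 15.7% higher. DDX3X, which helps ribosomes start on structured leaders, had 110 ± 58.7 CPM in control and 58.9 ± 14.5 in CYT (SD, n = 3), with a wider spread in control. Its log2 fold change was -0.90 (SE 0.42, edgeR adjusted p = 0.138) and ran from -1.25 to -0.46 when each library was left out. DDX3X was called lower without control replicate 2 (adjusted p = 0.0473) and with the GC content correction and the block (-0.92, adjusted p = 0.0462). DDX6 of mRNA decay, DHX29 of ribosome scanning and DHX34 of nonsense-mediated decay lay between -0.45 and 0.43. AC026704.1, an antisense gene named after its values were seen, lies over 38957 bases of the DHX29 locus. It had 1, 7 and 0 counts in control and 51, 61 and 49 in CYT (log2 fold change 4.58, edgeR adjusted p = 0.00288). DHX29 itself had 310, 521 and 278 counts in control and 213, 435 and 233 in CYT, where the groups overlapped.

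Of the 2 mitochondrial helicases, DHX30, which assembles the mitochondrial ribosome, fell, where 12.9% of all genes were called lower. It had 656, 583 and 501 CPM in control and 297, 183 and 383 in CYT. The groups did not overlap, and CYT replicate 2 was the lowest. The means were 580 ± 77.2 and 288 ± 100 CPM (SD, n = 3), with a log2 fold change of -1.01 (SE 0.33, edgeR adjusted p = 0.0432). This was the call nearest the threshold, and it was lost under upper-quartile scaling (adjusted p = 0.0676), when genes below a mean of 5 CPM were removed (0.0648) and with protein-coding genes alone (0.0616). It was also lost without control replicate 1, 2 or 3, or CYT replicate 1 (adjusted p up to 0.116). DDX28, of the large subunit of the mitochondrial ribosome, had a log2 fold change of 0.41 (SE 0.31, edgeR adjusted p = 0.353). Its whole locus lies within DUS2 on the other strand, which fell (log2 fold change -2.77, adjusted p = 0.00116).

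DDX11, a DNA helicase of sister chromatid cohesion that carries the family name, had 41.9, 22.9 and 27.7 CPM in control and 17.0, 8.47 and 21.7 in CYT. The groups did not overlap, but the adjusted p was 0.104 (log2 fold change -0.97, SE 0.41, edgeR). DDX12P, a pseudogene copied from DDX11, had 239, 133 and 166 counts in control and 119, 93 and 96 in CYT, so reads shared between them are uncertain. The interferon-induced pair DDX60 and DDX60L had no call, with log2 fold changes of 0.32 and 0.60. DDX59, DHX32, DHX40 and DHX57, whose roles are less defined, had no call and lay between -0.34 and -0.17.

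Ratios of paralogs within a library need no scaling between libraries. The log2 ratio of DDX5 to DDX17 counts was 1.45, 1.32 and 1.59 in control and 5.11, 4.91 and 5.66 in CYT. The mean went from 1.45 ± 0.13 to 5.23 ± 0.39 (SD, n = 3), a difference of 3.77, so that DDX17 took a far smaller part of the pair in every CYT library. DDX39A to DDX39B went from -0.86 ± 0.17 to -1.23 ± 0.20, a difference of -0.37, and DDX21 to DDX50 from 2.19 ± 0.33 to 2.78 ± 0.26, a difference of 0.58. The ratios are not corrected for GC content, which was 58.3% in DDX39A and 49.5% in DDX39B. With the GC content correction their log2 fold changes were -1.60 and -1.49, against -1.67 and -1.29 in the main fit. The part of GC content in the ratio of DDX39A to DDX39B was not tested. For DDX19A to DDX19B the difference was 1.67, from -1.10 ± 1.05 to 0.57 ± 0.29, and it was 1.06 without control replicate 1, the library with the most read-through counts. These 4 ratios did not overlap between the groups, with an exact two-sided permutation p of 0.1, the smallest that 3 against 3 allow, and 0.125 adjusted over the 5 pairs. DDX60 to DDX60L overlapped, at 0.02 ± 0.26 and -0.36 ± 0.21 (exact permutation p = 0.2).

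**Figure D3:**
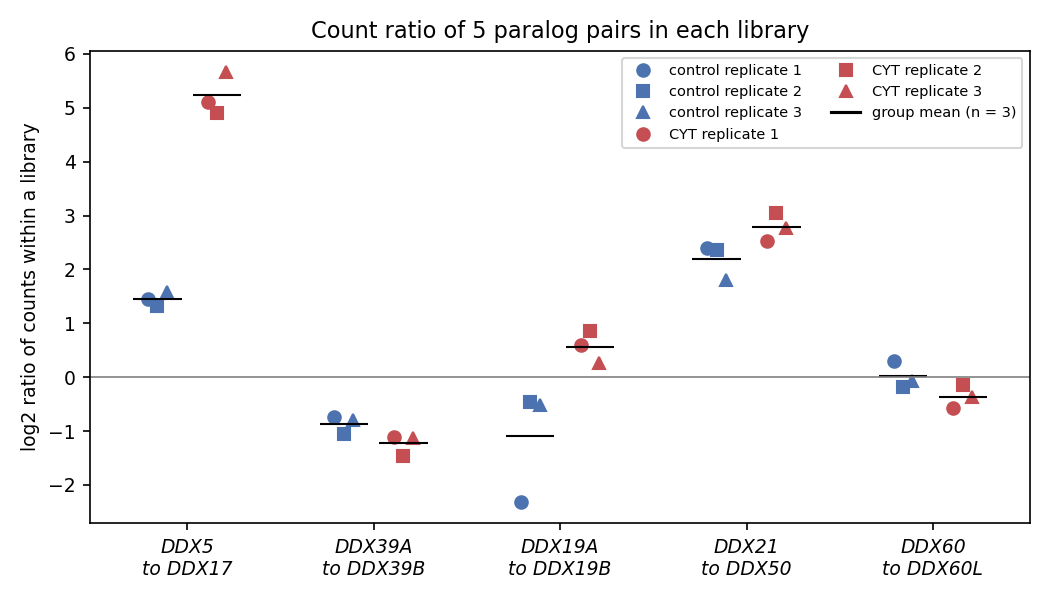
Log2 ratio of the counts of 5 paralog pairs within each library, with blue control and red CYT symbols, shapes for replicate numbers and lines at the group means (n = 3). The ratio of DDX5 to DDX17 rises from 1.45 to 5.23, and control replicate 1 lies apart at -2.31 in the ratio of DDX19A to DDX19B.

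The whole family held 0.471%, 0.469% and 0.463% of all counts in control and 0.394%, 0.409% and 0.350% in CYT. The control libraries were nearly level and every CYT library was lower, with a difference of -0.0833 percentage points (exact two-sided permutation p = 0.1, the smallest that 3 against 3 allow). Within the family, DHX30 held 12.3% of the counts in control and 7.55% in CYT, DDX39B 7.90% and 4.04%, and DDX5 7.11% and 12.2%. Per length, in the deposited FPKM, DHX30 had the highest level in control (50.8), followed by DDX21 (31.2), DHX9 (27.5) and DDX56 (27.1). In CYT the order was DDX21 (30.0), DDX28 (26.8), DHX9 (25.8) and DHX30 (25.2). These levels differ by less than the spread between the CYT libraries of DDX21 and DHX9. DDX17 was 22nd of the members in control, at 7.50 FPKM, and 47th in CYT, at 0.821.

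Replicate 2 stood apart in both groups. Over the 48 members, the log2 CPM of replicate 2 less the mean of the other replicates correlated between control and CYT with r = 0.72 (0.51 over all genes tested), described over genes of the same libraries and not over samples. In 20 members it was higher in both groups, in 17 lower in both and in 11 opposite. The members with higher values had a median GC content of 40.6% in the longest transcript, and those with lower values 56.6%. The correlation with GC content was -0.68 in control and -0.87 in CYT, against -0.51 and -0.74 over all genes tested. After a correction for GC content, chosen after seeing the data, 22 members were called lower and 3 higher, where 26.1% of all genes were called lower and 20% higher. With the replicate block as well, 23 were called lower and 3 higher, against the same shares of all genes. The members' share called lower was 45.8% and 47.9%. All 13 calls remained in both.

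**Figure D4:**
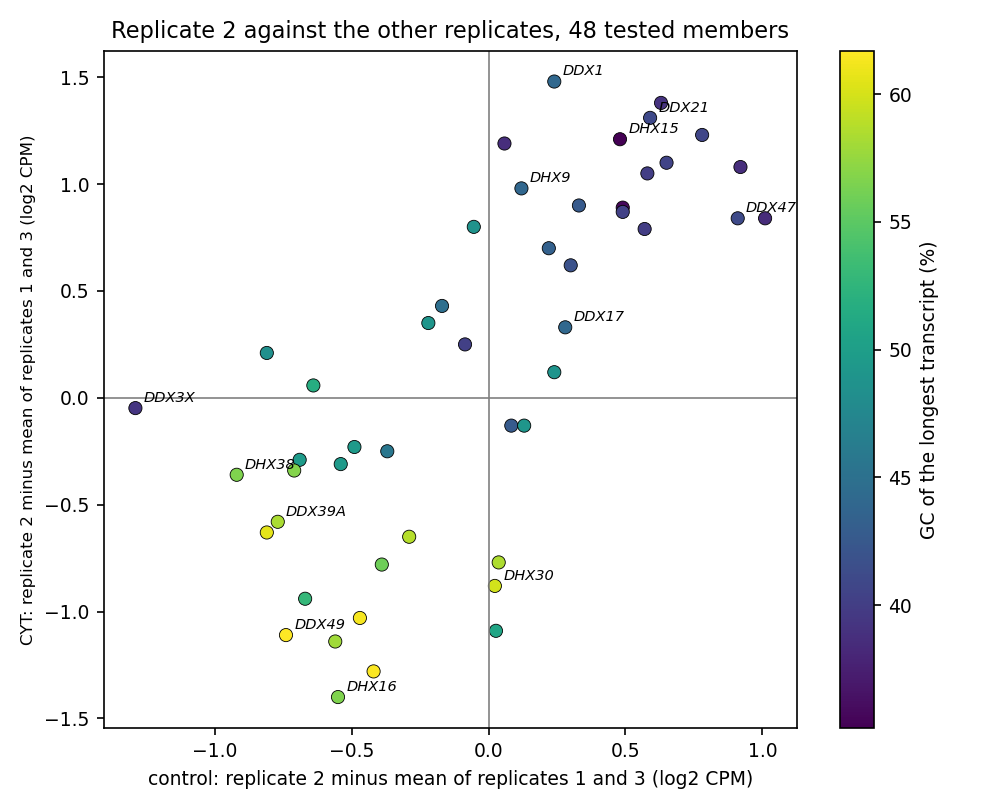
Replicate 2 less the mean of replicates 1 and 3, in log2 CPM, for the 48 tested members, in control on the x axis and in CYT on the y axis, coloured by the GC content of the longest transcript in percent. The 20 members higher in both groups have a median GC content of 40.6% and the 17 lower in both 56.6%, with exceptions such as DDX3X, at 39.3% among the latter (r = 0.72 over all 48).

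Other RNA helicases and the cofactors of these enzymes were read in the same fit. Of 17 helicases outside the name rule, 16 were tested, 1 fell and 3 rose. Neither share, 6.25% or 18.8%, is far from the 12.9% and 15.7% of all genes called lower and higher. SKIV2L, the helicase of the cytoplasmic exosome, fell (log2 fold change -1.73, SE 0.38, edgeR adjusted p = 0.00942). EIF4A3 of the exon junction complex rose (1.05, SE 0.26, edgeR adjusted p = 0.0143), as did HELZ (1.40, SE 0.34, edgeR adjusted p = 0.0140) and SUPV3L1 of the mitochondrial RNA degradosome (1.11, SE 0.29, edgeR adjusted p = 0.0184). The translation helicases EIF4A1 and EIF4A2, DEAD box proteins without the DDX symbol, had -0.35 (edgeR adjusted p = 0.569) and -1.07 (edgeR adjusted p = 0.06).

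Of 43 cofactor genes tested, 9 fell and 1 rose, with a median log2 fold change of -0.47. These are 20.9% and 2.33% of the list, where 12.9% and 15.7% of all genes were called lower and higher. PATL1 and LSM14A, partners of DDX6 in mRNA decay bodies, fell with log2 fold changes of -1.88 and -1.42. EIF4B and EIF4H, which stimulate the EIF4A helicases, fell with -1.84 and -1.01. THOC5 and THOC6, subunits of the THO complex in which DDX39B works, fell with -0.96 and -1.56. GPKOW, a G-patch activator of DHX16, fell with -1.35, and GPATCH11, another G-patch protein, with -1.71. GEMIN4, the partner of DDX20, fell with -1.07. The edgeR adjusted p of these 9 lay between 0.00237 and 0.0404. GLE1, which activates DDX19 at the pore, was the 1 cofactor that rose (1.01, SE 0.27, edgeR adjusted p = 0.0210).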

How the data were processed

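RNA from 3 control and 3 CYT-treated MDA-MB-231-DR samples was sequenced on an Illumina NovaSeq platform, and groups and replicate numbers were taken from the labels. Raw gene counts, from clean reads that the authors aligned with Hisat2, were deposited, as were FPKM values for which their methods name Stringtie. The processing notes name hg38 and FastQC 0.12.1, and the counting program, its annotation and its use of strand are not given in the sources used here, so overlapping, antisense and duplicated genes are uncertain.

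Counts were tested with edgeR 4.0.16 in R 4.3.3 (TMM, filterByExpr with a minimum count of 10, quasi-likelihood test, Benjamini-Hochberg adjustment over 15572 genes) with the group as the only term. The biological coefficient of variation was 37.5%. CPM is TMM-scaled, and fold changes are of CYT against control. Single values per library were compared with exact permutation tests in scipy 1.17.1, and paralog ratios had 0.5 counts added. No library was a copy of another of its group, since the chi-square per gene was 22.1 or more between replicates of a group. Of the 53 loci, 51 equal those of GENCODE release 29. Promoters came from RefSeq.

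Same-numbered libraries had correlations of their deviations across genes of 0.188, 0.458 and 0.124 for replicates 1, 2 and 3. Control 1 with CYT 3 (0.303) and control 3 with CYT 1 (0.201) correlated more strongly than the same-numbered pairs of replicates 1 and 3. By this check only replicate 2 matched by number. The replicate block therefore rests on the labels' numbers, and whether the libraries were paired is not known. On simulated counts for these genes, with 200 changed by a log2 fold change of 2, edgeR recovered 133 of the 196 that passed the filter, and 11.3% of its calls were false. The share of false calls was 18.3% with the replicate block, 19.8% for DESeq2 and 13.7% for limma. All of these shares, also that of the main fit, were above the nominal 5%. The simulation held no difference between replicates, and it changed 200 genes where the main fit called 4451. Its shares may therefore not carry over to these data. Calls of every fit, and more so those added by the block and by DESeq2, are to be read with this limit.

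The members and gene lists were chosen with earlier results of these data known. Every tested member is named. Values in every library are given for called members, DDX21 and DHX9, and fold changes for the 10 uncalled members of highest mean FPKM. EIF4A1, EIF4A2 and EIF4A3 are named whether called or not, as are called genes of the helicase and cofactor lists and the markers. Genes that overlap a member, and the pseudogene DDX12P, were added after their values were seen. The alternatives were DESeq2 1.42.0, upper-quartile scaling, other filters, limma 3.58.1 on log2(FPKM + 1) and log2(FPKM + 0.1), the replicate block and each library left out. The correction for GC content was added after the data were seen.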

Additional observations from a re-analysis of the deposited data

Results flagged for a closer look

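Outside the members, 72 genes that are not protein-coding carried a name of the family or overlapped a member. Of these, 42 had 0 counts in all 3 control libraries, and 3 of the 42 had more than 3 counts in every CYT library. DDX39B-AS1, antisense to the start of DDX39B, had 11, 9 and 12 counts in CYT. AL445483.1, which overlaps DDX59, had 6, 21 and 21, and AC243571.2, antisense to DDX52, had 6, 4 and 4. Against a floor of 3 counts over the control group, CYT was at least 12.9-fold, 19.4-fold and 5.65-fold higher, which covers counting error only. Among all 38485 genes that are not protein-coding, 28856 had 0 counts in every control library, and 177 of these had more than 3 in every CYT library. The genes were named after their values were seen, and they did not enter the counts of members above.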

How the results depend on the processing

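The replicate block called 19 members lower (19.8% of all genes), the GC content correction 22 (26.1%), and both together 23 (26.1%). Leaving out each library gave 3 to 18 members called lower (7.36% to 17% of all genes) and 0 to 3 higher (10.3% to 18.6%). Only 1 higher call was made with no filter (9.2% of all genes), and 1 (DHX38) with an absolute log2 fold change over 1 required as well (15.2%). With all other settings the numbers stayed within 1.5 times those given. Beyond the 8 additions named above the block changed no call, and for the share of all counts its exact paired p was 0.25, the smallest possible. The median of the members stayed below that of all genes, at -0.24 against 0.16 under upper-quartile scaling, -0.26 against 0.48 in DESeq2 and -0.32 against 0.41 with no filter, where other genes enter. Signs turned only in uncalled members. Under upper-quartile scaling these were DDX21 (0.055), DDX47 (0.023), DHX29 (0.093) and DHX9 (0.016), with a mean of at least 5 CPM DDX21 (0.0064) and DHX29 (0.046), and with protein-coding genes alone DHX29 (0.014). When each library was left out, the log2 fold change ran from -0.086 to 0.52 for DDX20, -0.49 to 0.036 for DDX23 and -0.34 to 0.61 for DDX60, which turned without CYT replicate 2. It ran from -0.016 to 0.54 for DDX49, -0.41 to 0.027 for DHX32, -0.55 to 0.038 for DHX9, -0.68 to 0.15 for DDX21, -0.48 to 0.22 for DDX47, -0.42 to 0.14 for DHX29, -0.51 to 0.24 for DHX36 and -0.74 to 0.093 for DHX40, which turned without CYT replicate 3 or others.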
